A study of Mus musculus with 208 samples.

Results

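The genes described here are the 28 genes of mouse cholesterol synthesis and sterol control: 20 enzymes that carry carbon from acetoacetyl-CoA to cholesterol and the isoprenoids, 5 genes of the SREBP2 system that sets the output of those enzymes, and 3 targets of the sterol sensor LXR. They were chosen by name, with earlier results of these data known. All 28 had a row in every table, which held 29956 genes for sebaceous glands, 38632 for skin, 35799 for ileum, 23818 for liver and 23845 for embryos.

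The study compared mRNA from offspring and embryos of C57BL/6 mice whose parents had been conventionally raised (CR) or germ free (GF), and of fathers lacking Rag2 and so their T and B cells. Per the methods, CR mice derived from Charles River stock, GF mice from a gnotobiotic colony and Rag2-/- mice from Jackson Laboratories. Colony of origin therefore cannot be told apart from germ-free or Rag2 status in comparisons with CR controls. The series held 208 samples in 21 groups, and in every cross the father stands first, so that GF×CR denotes a GF father and a CR mother. Sebaceous glands (SGs) were captured by laser from fixed back skin of wild-type F0 mice (3 CR, 3 GF) and of F1 mice (2 CR, and 3 labelled GF whose parents, per the methods, were GF×GF and which were colonised from birth). Whole back skin came from F1 mice of CR×CR (5), GF×GF (3) and GF×CR (3) parents and from F2 mice of the same lines (5, 3 and 6). The paper describes F2 breeding from F1 females and new males, CR for the CR×CR and GF×CR lines and GF for the GF×GF line. It also describes breeding of littermates, and it does not say which scheme gave the sequenced F2 skin. The distal ileum and the liver were each taken from 3 GF×CR and 4 CR×CR F1 mice. The paper states that its studies used mice of both sexes, and the labels give no age or sex for single mice. The Y-linked genes Ddx3y and Eif2s3y, in read counts scaled to the same library total (CPM), summed to 110 to 162 in F0 glands. Their sums were 2.52 to 5.94 in F1 glands, at most 2.86 in skin, at most 0.776 in ileum and 0 in liver. Within no comparison of mice did these sums split into high and low mice, so that they show no mix of sexes there. Single 4-cell embryos came from in vitro fertilisation of CR×CR (25), GF×CR (15), CR×GF (9) and RAG×WT (21) gametes, the last being Rag2-/- sperm with wild-type eggs, and single morulae from CR×CR (43), GF×CR (17) and RAG×WT (28). The paper states that its 4-cell embryos came from 3 replicate fertilisation experiments. The labels do not say which embryos shared a father or a fertilisation. P-values here therefore measure the spread between these mice and embryos, not between fertilisations. In bulk samples, fewer cells of a type and less RNA per cell cannot be told apart.

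Cholesterol is built in the mevalonate pathway. Acetyl units are joined by Acat2 and Hmgcs1, reduced to mevalonate, phosphorylated and decarboxylated by Mvk, Pmvk and Mvd, and assembled into isoprenoids by Idi1, Fdps and Ggps1. Fdft1 and Sqle make and oxidise squalene, Lss closes it to lanosterol, and Cyp51, Tm7sf2, Lbr, Msmo1, Nsdhl, Hsd17b7, Ebp, Sc5d and Dhcr7 trim lanosterol to cholesterol. When sterols run low, Scap escorts SREBP2 (Srebf2) out of the endoplasmic reticulum and the released factor switches these enzymes on, whereas Insig1 and Insig2 hold it back. Stard4 moves cholesterol between membranes. LXR answers a surplus by inducing Abca1 and Abcg1, which export cholesterol, and Mylip, which degrades lipoprotein receptors. Sebaceous glands, which secrete sebum, and the liver are both strong lipid makers.

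The levels of the members differed widely between tissues. The values of glands, skin, ileum and liver are CPM, read counts scaled to the same library total, which compare a gene between libraries but not genes with each other, and the tissues came in separate tables, so that they are set side by side with no test. Per the methods, gland and skin libraries were made from total RNA depleted of ribosomal RNA, and ileum and liver libraries with mRNA kits. Library type and tissue cannot be told apart between these pairs. The 20 enzymes together took 7446 to 7831 CPM in F0 CR glands, 5545 to 5801 in F1 CR glands, 490 to 776 in F1 CR×CR skin, 1468 to 3471 in CR×CR ileum and 2091 to 3220 in CR×CR liver. The glands were rich in sebocyte transcripts, since 10 sebocyte markers summed to between 27542 and 39577 CPM in every gland library. Msmo1, the C4-methyl sterol oxidase, averaged 2153 ± 138 CPM (SD, n = 3) in F0 CR glands against 68.4 ± 14.3 (SD, n = 5) in F1 CR×CR skin. Insig2 averaged 1077 CPM in F0 CR glands and 32.8 in F1 CR×CR skin, whereas Idi1, the isopentenyl diphosphate isomerase, was highest in the ileum, at 223 CPM against 16.2 in F0 CR glands. Idi1 has near-identical copies, so that its values are uncertain.

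One enzyme stood apart in the glands. Relative to F1 CR×CR skin, 19 of the 20 enzymes were between 1.42 and 62.3 times as high in F0 CR glands and between 1.80 and 19.4 times as high in F1 CR glands. Sc5d, the lathosterol oxidase that sets the double bond of 7-dehydrocholesterol, was at 0.112 times the skin level in F0 CR glands and at 0.421 times in F1 CR glands. These are ratios of means from separate tables and were not tested. The highest, that of Hsd17b7, was 62.3 in F0 and 13.5 in F1 CR glands. Glands were fixed and laser-captured whereas skin was frozen, and F0 glands carried far more Y-linked transcript than skin. Tissue therefore cannot be told apart from handling or, in the F0 ratios, from generation and sex.

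**Figure D1:**
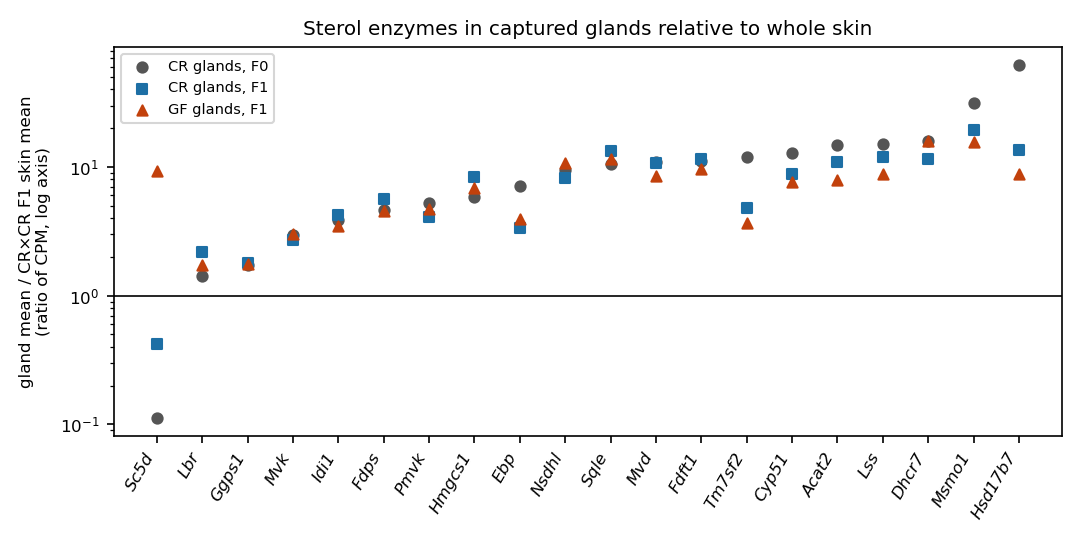
Mean CPM in captured sebaceous glands divided by mean CPM in CR×CR F1 back skin, on a log axis, for the 20 enzymes in F0 CR (3 mice), F1 CR (2 mice) and F1 GF (3 mice) glands. Sc5d is the only enzyme under 1 in CR glands (0.112 and 0.421) and lies at 9.32 in F1 GF glands.

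The promoters of 5 enzymes on which the results turn are shown because the family is known for shared control by SREBP2, which binds sterol elements beside the CCAAT-binding factor NF-Y. RefSeq promoters of the GRCm38.p6 build, 300 bases that span each gene's start, matched 23 of the 28 genes through 29 promoters. Fdps, Fdft1, Sqle, Abcg1 and Stard4 had no entry used here. Each is written 5′ to 3′ on the gene's strand, and capitals mark matches to the sterol element TCACNCCAC or to CCAAT, on either strand.
Hmgcs1, chr13:119690101-119690400, plus strand: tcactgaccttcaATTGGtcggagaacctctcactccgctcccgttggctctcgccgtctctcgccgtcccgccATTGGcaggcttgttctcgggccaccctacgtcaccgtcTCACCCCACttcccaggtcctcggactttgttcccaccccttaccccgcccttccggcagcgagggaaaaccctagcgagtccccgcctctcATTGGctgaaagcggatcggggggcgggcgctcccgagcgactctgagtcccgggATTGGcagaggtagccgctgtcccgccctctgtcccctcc
Sc5d, chr9:42264251-42264550, minus strand: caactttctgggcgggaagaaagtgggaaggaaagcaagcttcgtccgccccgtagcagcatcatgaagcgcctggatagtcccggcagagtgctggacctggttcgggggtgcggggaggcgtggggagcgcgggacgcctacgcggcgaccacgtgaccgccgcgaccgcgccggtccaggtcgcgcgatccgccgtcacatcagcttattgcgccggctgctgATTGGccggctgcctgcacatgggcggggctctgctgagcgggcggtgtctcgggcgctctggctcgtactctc
Dhcr7, chr7:143829964-143830263, plus strand: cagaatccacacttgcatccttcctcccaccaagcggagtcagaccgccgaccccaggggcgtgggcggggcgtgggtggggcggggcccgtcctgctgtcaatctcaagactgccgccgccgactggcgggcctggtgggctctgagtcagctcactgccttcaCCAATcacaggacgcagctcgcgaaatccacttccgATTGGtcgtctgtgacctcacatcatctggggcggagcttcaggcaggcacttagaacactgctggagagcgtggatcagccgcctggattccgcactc
Mvd, chr8:122443373-122443672, minus strand: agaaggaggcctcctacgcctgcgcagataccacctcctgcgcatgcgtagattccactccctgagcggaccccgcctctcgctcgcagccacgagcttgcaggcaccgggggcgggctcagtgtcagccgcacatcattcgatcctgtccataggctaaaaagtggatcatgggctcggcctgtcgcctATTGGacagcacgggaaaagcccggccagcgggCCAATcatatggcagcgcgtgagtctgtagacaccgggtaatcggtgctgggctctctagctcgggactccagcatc
Lss, chr10:76531355-76531654, plus strand: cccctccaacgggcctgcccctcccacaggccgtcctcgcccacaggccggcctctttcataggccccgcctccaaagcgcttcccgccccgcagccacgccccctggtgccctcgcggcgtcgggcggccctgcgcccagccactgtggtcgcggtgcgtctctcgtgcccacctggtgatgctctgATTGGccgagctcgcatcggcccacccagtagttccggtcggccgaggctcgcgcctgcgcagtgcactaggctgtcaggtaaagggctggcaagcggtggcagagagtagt

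The Dhcr7 promoter is the most downstream of 3 annotated starts. Among the 23 matched genes TCACNCCAC was found in Hmgcs1 alone, as TCACCCCAC 137 bases before the start, against 1.44% of 27025 genes. CCAAT was common: 20 of the 23 genes, and 16 of the 17 matched enzymes, held it in either orientation, against 41.1% of all genes. The E-box CACGTG was present in 6 of 23 genes, against 8.09% of all genes, in the Sc5d promoter shown and, for Dhcr7, in the promoter of another start that is not shown. None of these 3 motifs contains another. These matches describe letters, not binding.

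To ask whether germ-free life changed the pathway in the gland, F0 GF and CR glands were compared. No member passed the test, which was limma on log2(CPM + 0.5) with Benjamini-Hochberg adjustment over 14889 genes at an adjusted p under 0.05, where 2.2% of all genes did. At an unadjusted p under 0.05, 5 members were higher and 4 lower in GF glands, against 13.8% and 6% of all genes (19.8% in either direction). The median log2 difference of the members was 0.14, as it was for all genes. With median ratio scaling, which moved both medians to near 0 (0.00 and 0.01), 1 member was higher and 4 lower, with no share of all genes given.

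The 4 members of smallest p were all lower in GF glands: Insig2 of the sterol brake, the enzyme Hsd17b7 and the exporters Abcg1 and Abca1. Insig2 was at 769, 745 and 888 CPM in GF glands and 1177, 1003 and 1049 in CR glands, a log2 difference of -0.43 (SE 0.11, limma adjusted p = 0.0892). Hsd17b7, the 3-keto sterol reductase, was at 877, 807 and 1096 CPM in GF glands and 1245, 1301 and 1255 in CR glands (-0.46, SE 0.12, limma adjusted p = 0.1002). For both genes every GF gland lay under every CR gland.

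Of the LXR targets, Abcg1 was at 60.6, 50.7 and 41.2 CPM in GF glands and 88.7, 70.6 and 72.9 in CR glands (-0.61, SE 0.17, limma adjusted p = 0.103). Abca1 was at 782, 653 and 685 CPM in GF glands and 982, 801 and 989 in CR glands (-0.38, SE 0.12, limma adjusted p = 0.137). The groups did not overlap for either, as for 4 members lower and 3 higher in all, against 7.82% of all genes lower and 17.1% higher. Mvk, Srebf2 and Dhcr7 were the 3 non-overlapping members with higher values in GF glands, with log2 differences of 0.43, 0.37 and 0.23. A fibroblast marker sum of 6607 to 13113 CPM in GF and 4661 to 7370 in CR glands moved with these differences, as did a sebocyte marker sum of 27542 to 35113 in GF and 32805 to 39577 in CR glands, and their part in them was not tested. Leaving out the third GF gland brought 3 members past the threshold, and the share of all genes in that fit is not given.

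In the F1 glands, Sc5d passed the test and no other member did. Sc5d was at 235, 411 and 328 CPM in the 3 GF glands and 23.7 and 5.70 CPM in the 2 CR glands, a log2 difference of 4.69 (SE 0.50, limma adjusted p = 0.0101). The lowest GF gland was thus well above the higher of the CR glands, while the CR pair itself differed widely. Sc5d ranked 15 by p among 15058 genes tested, of which 0.717% passed and 0.564% passed as higher. Over 14 alternatives Sc5d kept its call in 9 and lost it in 5. Without the second CR gland, which left 1 CR gland, the difference was 3.71. Without the second or the third GF gland the limma adjusted p was 0.0557 and 0.0649. With the Y-linked level as a covariate the limma adjusted p was 0.617. Ddx3y and Eif2s3y summed to only 2.52 to 5.94 CPM in these glands, so that this covariate did not separate the sexes.

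None of the other 27 members passed. At an unadjusted p under 0.05, 3 members, Sc5d among them, were higher and 4 lower, against 6.86% and 5.34% of all genes (12.2% in either direction), and the members' median log2 difference was -0.16 against -0.03 for all genes. Insig1 was at 280, 267 and 274 CPM in GF glands and 382 and 372 in CR glands (-0.46, limma adjusted p = 0.154), and Lss at 379, 321 and 380 against 454 and 515 (-0.43, limma adjusted p = 0.250). Values did not overlap for 10 members lower in GF glands, against 16.1% of all genes, and for 4 members higher, Sc5d again among them, against 14%. For the enzymes immediately before and after Sc5d in the route, Ebp and Dhcr7, the log2 differences were 0.22 and 0.48, and neither passed. Fibroblast markers summed to 972 to 1891 CPM in GF and 2176 to 2597 in CR F1 glands, adipocyte markers to 608 to 910 against 334 to 447 and keratinocyte markers to 6815 to 7836 against 5507 to 6721, and their part was not tested.

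Sc5d was measured in every other tissue. F0 glands held 13.5, 11 and 5.26 CPM in GF and 2.98, 5.27 and 3.47 in CR mice and overlapped in 1 gland of each group (log2 difference 1.18, SE 0.40, limma adjusted p = 0.158). F1 skin held 21.3 to 50.3 CPM in CR×CR and 25.6 to 41 in GF×GF mice in their shared table, which overlapped. The F0 and F1 glands differed in their Y-linked transcripts as well, Ddx3y and Eif2s3y summing to 110 to 162 CPM in F0 and 2.52 to 5.94 in F1 glands, and the generations were tabulated apart, so that sex, generation and table cannot be told apart in levels such as that of Hsd17b7, at 1267 CPM in F0 CR and 275 in F1 CR glands.

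**Figure D2:**
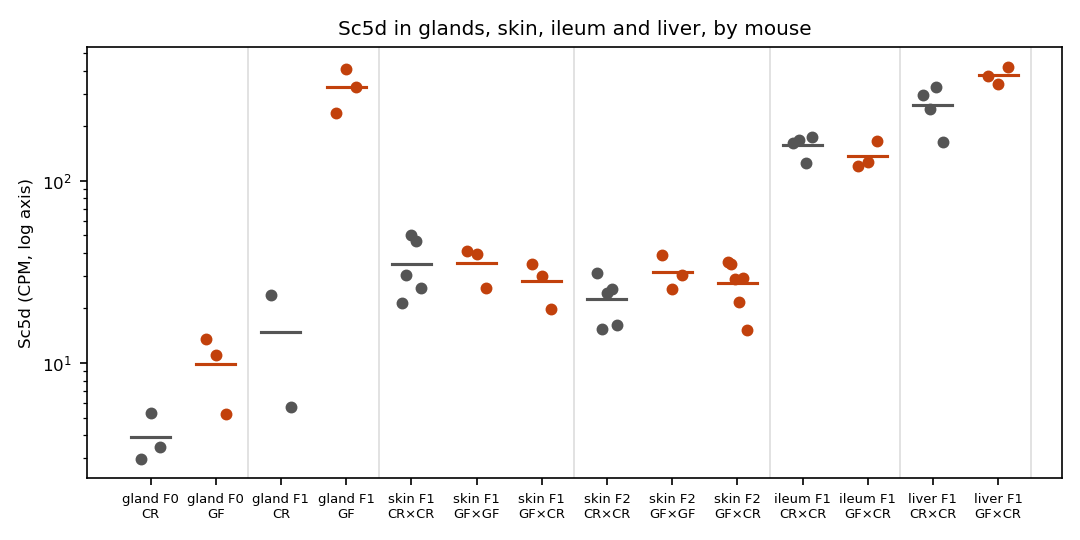
Sc5d in CPM on a log axis in each mouse (points) with group means (lines), CR controls in grey and mice of GF descent in orange. The 3 F1 GF glands (235 to 411 CPM) sit above both F1 CR glands (5.70 and 23.7), while skin and ileum groups overlap.

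Whole back skin was then compared between crosses, each in its own table, the 5 CR×CR mice of a generation serving both. In F1 GF×GF skin no member passed, against 0.09% of 16668 genes, and 3 members were lower at an unadjusted p under 0.05, against 8.47% of all genes (8.93% in either direction). Those were Mvd, Lss and Stard4. Mvd, which decarboxylates mevalonate diphosphate, read 8.36, 5.48 and 7.09 CPM in the GF×GF mice and 10.1, 9.73, 11.3, 10.9 and 8.93 in the CR×CR mice (-0.53, SE 0.18, limma adjusted p = 0.542). Lss, the lanosterol synthase, was at 29.3, 23.7 and 28.4 against 25.8, 36.3, 46.1, 51.0 and 43.4 CPM (-0.54, limma adjusted p = 0.557). Stard4 was at 22.5, 21.7 and 19.6 against 27.1, 25.3, 31.5, 32.6 and 22.6 CPM (-0.37, limma adjusted p = 0.557). Mvd, Stard4 and Hsd17b7 (-0.31, limma adjusted p = 0.567) were the 3 members that did not overlap between the groups, where 6.22% of all genes were lower without overlap, whereas for Lss 1 CR×CR mouse lay among the GF×GF mice. The members' median was -0.24 and that of all genes -0.20. With median ratio scaling or quantile normalization these medians were -0.02 and 0.01, or -0.04 and 0.00, and 0 members reached an unadjusted p under 0.05.

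The F1 offspring of GF fathers and CR mothers had lower values for most enzymes of the route to cholesterol, though no single member passed (limma, 0.0537% of 16761 genes passed). Of the 20 enzymes, 18 had a log2 difference under 0 and 2 above it, where 36.5% of all genes were above 0, with a median of -0.50 against -0.08 for all genes tested, and 9 members, all enzymes, were lower at an unadjusted p under 0.05, against 5.77% of all genes (7.08% in either direction). None was higher at that p, which 1.31% of all genes were.

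Mvd was at 5.54, 7.42 and 6.20 CPM in GF×CR and 10.0, 9.71, 11.3, 10.8 and 8.91 in CR×CR mice, without overlap (-0.63, SE 0.17, limma adjusted p = 0.511). Lss was at 27.3, 23.3 and 16.8 CPM against 26.4, 37, 47.0, 51.9 and 44.2, so that 1 GF×CR mouse lay just above the lowest control (-0.85, SE 0.23, limma adjusted p = 0.539). Hsd17b7 was at 17.6, 12.6 and 11.1 against 20.3, 21.1, 18.8, 25.2 and 16.6 CPM (-0.56, limma adjusted p = 0.616). Its groups overlapped by 1 mouse. Nsdhl, the sterol 4-alpha-carboxylate dehydrogenase, was at 9.38, 8.38 and 6.96 against 9.90, 14, 14, 14.7 and 9.89 CPM and did not overlap (-0.56, limma adjusted p = 0.617), and Mvd and Nsdhl were the 2 members without overlap, against 3.64% of all genes lower without overlap. Cyp51, Idi1, Acat2, Fdps and Msmo1 made up the 9, at -0.63, -0.81, -0.60, -0.55 and -0.43 on the log2 scale. The 5 SREBP2 control genes were all under 0 too, with a median of -0.29, whereas the 3 LXR targets were all above 0, with a median of 0.25, and none of these 8 had an unadjusted p under 0.05.

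The lower enzyme values leaned on 1 mouse. GF×CR mouse 3 had the lowest value of all 8 mice for 15 of the 20 enzymes, and its enzymes summed to 364 CPM, against 471 and 574 in the other GF×CR mice and 490 to 776 in CR×CR mice. Without it, 2 members were lower at an unadjusted p under 0.05 and the members' median was -0.23, and without CR×CR mouse 3 the number was 4. Without GF×CR mouse 1 it rose to 14. The share of all genes is not given here for these fits, so that the counts are not set against the background. Keratinocyte markers summed to 1702 to 3695 CPM in GF×CR and 2702 to 7177 in CR×CR skin, and sebocyte markers to 1611 to 2358 against 1437 to 4320, and their part in these differences was not tested.

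In the F2 generation no difference of a member was detectable in either cross. None passed in F2 GF×GF skin, where 0.0418% of 16752 genes did, nor in F2 GF×CR skin, where limma called 0% of 16430 genes. No member reached an unadjusted p under 0.05 in either, against 1.75% and 2.22% of all genes. The members' median log2 difference was 0.05 for GF×GF and 0.04 for GF×CR, with all genes at 0.00 and 0.02. Without CR×CR mouse 5 the members' medians were -0.15 and -0.11, with all genes at -0.06 and -0.04. Lss, for instance, ran from 16.5 to 36.8 CPM in GF×GF and 21.5 to 38.9 in CR×CR mice of that table, and Mvd from 4.17 through a median of 7.43 to 14.8 CPM in 6 GF×CR mice against 5.43 to 11.4 in CR×CR mice. One control stood low: CR×CR mouse 5 was under the CR×CR mean for all 20 enzymes, and its enzymes summed to 342 CPM in the GF×CR table, against 553 to 708 in the other controls. Whether the F1 and F2 differences themselves differ was not tested, since the generations are in separate tables.

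**Figure D3:**
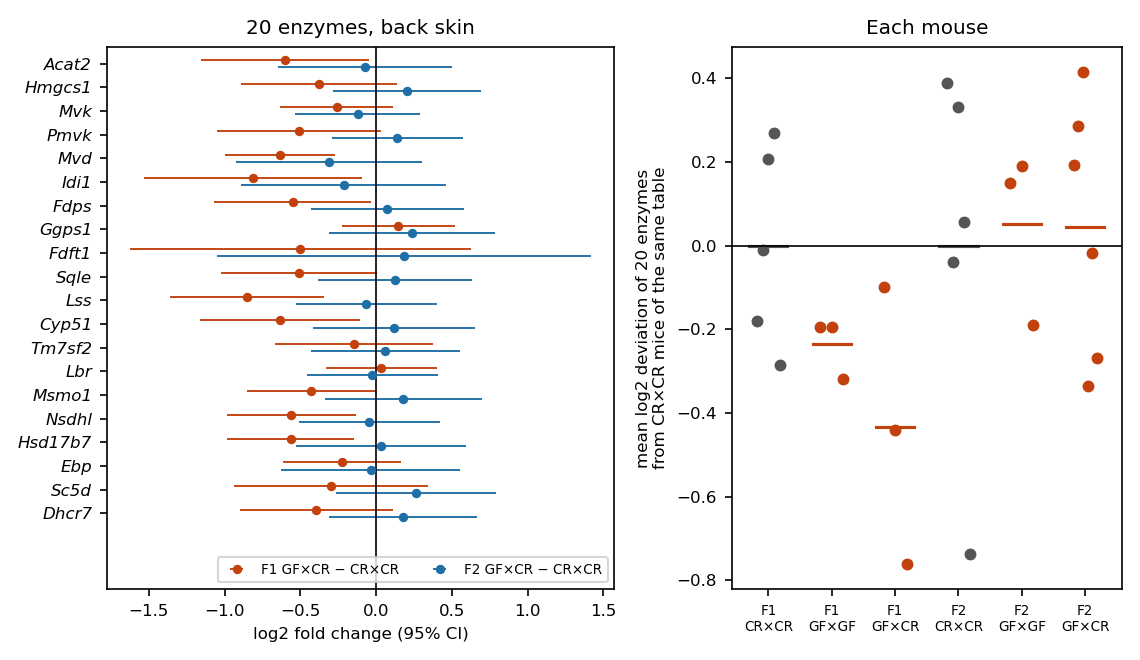
Left, log2 differences between GF×CR and CR×CR back skin with 95% confidence intervals for 20 enzymes, F1 in orange and F2 in blue. Right, each mouse's mean log2 deviation of the 20 enzymes from the CR×CR mice of its table, with group means as lines. The F1 differences are under 0 for 18 of 20 enzymes, and single low mice lie at -0.76 (F1 GF×CR) and -0.74 (F2 CR×CR).

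In the distal ileum no member passed (limma, 0% of 14802 genes passed), and none reached an unadjusted p under 0.05, against 4.5% of all genes. The members' median was -0.01 and that of all genes -0.08. Same-numbered mice deviated together here, and with the replicate number as a block 2 members, Hmgcs1 (0.65, limma adjusted p = 0.474) and Mylip (0.83, limma adjusted p = 0.480), were higher at an unadjusted p under 0.05, which 10.2% of all genes reached, and the members' median was 0.05. CR×CR mouse 1 had the lowest value of the 7 mice for 16 of 20 enzymes, its enzymes summing to 1468 CPM against 2931 to 3471 in the other controls and 2534 to 2942 in GF×CR mice. Without that mouse, in the fit without the block, 4 members were lower at an unadjusted p under 0.05, with no share of all genes given. Hmgcs1, the synthase that feeds the pathway, averaged 510 ± 218 CPM (SD, n = 4) in CR×CR and 669 ± 124 (SD, n = 3) in GF×CR ileum, a difference of means within the spread of the controls.

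The liver values, named TPM in the methods, step evenly as scaled whole reads would and were read as CPM. In the liver no member passed, against 0.0343% of 11663 genes, and 3 were higher at an unadjusted p under 0.05, against 6.09% of all genes (15.8% in either direction). All 3 act after lanosterol. Sc5d was at 374, 340 and 422 CPM in GF×CR and 296, 248, 327 and 163 in CR×CR livers, without overlap (0.59, SE 0.24, limma adjusted p = 0.271), and was the 1 member without overlap, against 6.55% of all genes higher without overlap. Msmo1 was at 180, 152 and 226 against 183, 105, 124 and 95 CPM (0.58, SE 0.24, limma adjusted p = 0.282), and Cyp51, the lanosterol demethylase, at 159, 194 and 238 against 194, 138, 118 and 118 (0.48, SE 0.22, limma adjusted p = 0.315). In both, CR×CR mouse 1 lay among the GF×CR mice. The median of the members was 0.13 and that of all genes -0.02. The count of 3 higher members went to 0 without GF×CR mouse 3 or CR×CR mouse 2, to 1 without GF×CR mouse 1 or CR×CR mouse 3 or 4, and to 5 without CR×CR mouse 1. Without CR×CR mouse 4, Dhcr7, Fdps, Mvk and Srebf2 were lower at that p, and without GF×CR mouse 1 Mvd was. These counts are given without the share of all genes and are not set against the background here. Hepatocyte markers summed to 103590 to 120030 CPM in GF×CR and 86855 to 93265 in CR×CR livers, and their part in these differences was not tested.

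**Figure D4:**
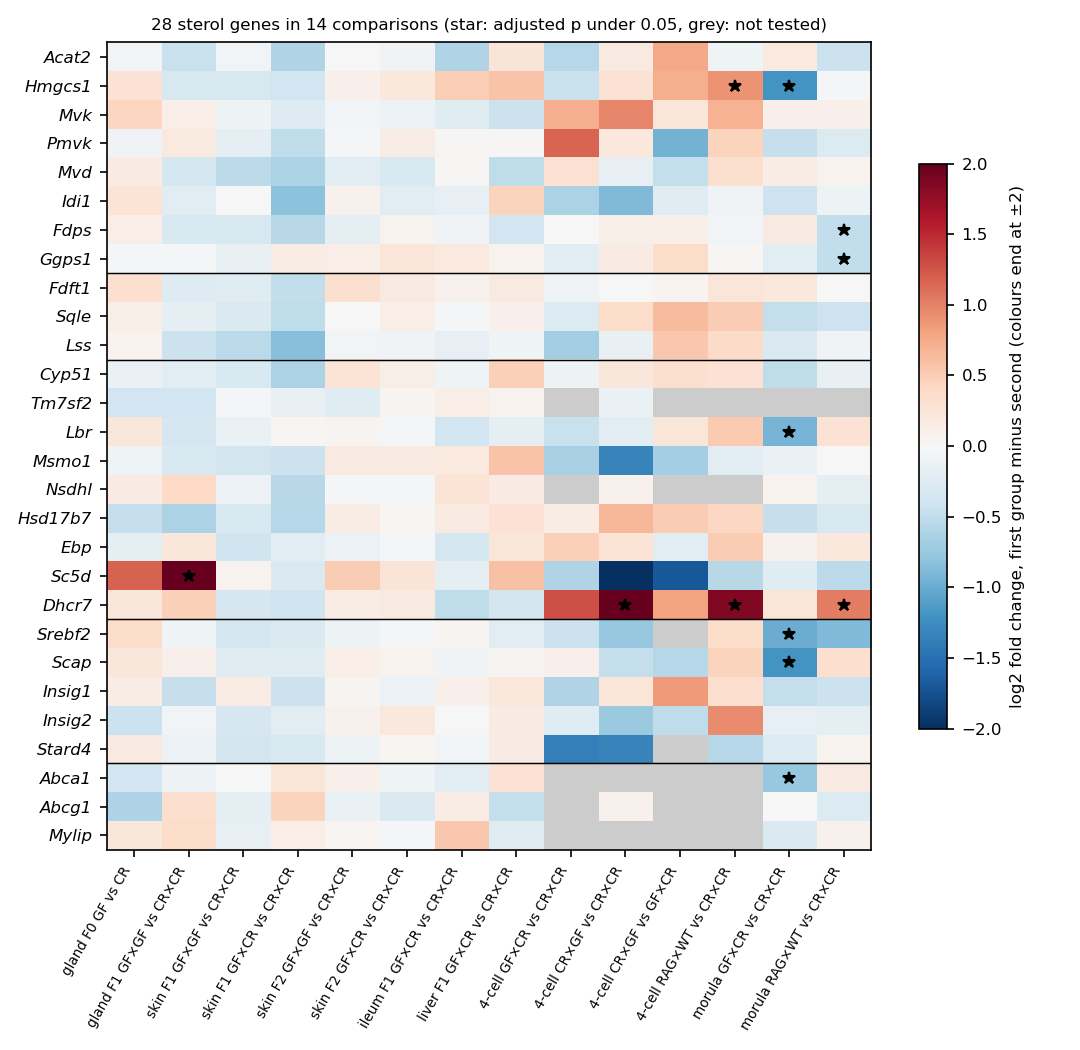
Log2 difference of each of the 28 members (rows, by role) in 14 comparisons (columns), red higher and blue lower in the first-named group, with colours ending at 2 either way, stars at an adjusted p under 0.05 and grey where a gene was too low to test. Stars fall on Sc5d in F1 glands and otherwise in embryos, where Dhcr7 has 3 of them.

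Embryo values are TPM, transcript abundances scaled for transcript length and library total, so that genes can be compared with each other. In CR×CR morulae Fdps had the highest median of the members, 513 TPM, followed by Lbr at 162 and Ebp at 109, whereas Tm7sf2, a sterol C14-reductase that shares its reaction with Lbr, was at a median of 0. At the 4-cell stage Nsdhl, Tm7sf2 and Mylip had medians of 0, Srebf2 was at 0.84 and Dhcr7 at 3.98 TPM. The embryos fell into 2 sets by whether Marchf2 or Mtarc2, a pair of names that spreadsheets can merge, carried the higher value, and the labels give no batch. CR×CR embryos belonged to both sets (19 and 6 at the 4-cell stage, 21 and 22 at the morula stage), all GF×CR and CR×GF embryos to the first and all RAG×WT embryos to the second, so that the RAG×WT cross and the second set cannot be told apart outside the comparison with same-set controls. Differences from the CR×CR embryos of the same set are therefore given beside those from all CR×CR embryos. Cumulus cell markers summed to at most 6.51 TPM in any embryo.

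Dhcr7, which reduces 7-dehydrocholesterol to cholesterol, was the member that stood out in embryos. At the 4-cell stage it ran from 0 through a median of 3.98 to 20.5 TPM in 25 CR×CR embryos, from 1.98 through 10.3 to 23.5 in 15 GF×CR embryos, from 4.61 through 16.1 to 73.9 in 9 CR×GF embryos, and from 1.22 through 19.2 to 58.3 in 21 RAG×WT embryos. All 3 other crosses had higher medians than CR×CR and overlapped with it.

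The difference passed the test for CR×GF and RAG×WT embryos. For CR×GF it was 2.09 on the log2 scale (SE 0.49, limma adjusted p = 0.0407), and against the 19 same-set controls 2.32 (limma adjusted p = 0.0441). CR×GF embryo 8, at 73.9 TPM, stood far above the next, at 26.5 TPM. In alternatives chosen after the data were seen, each CR×GF embryo was left out in turn: the difference stayed between 1.82 and 2.31, lowest without embryo 8, and the call held without embryo 3 or 6 and was lost without any of the 7 others (limma adjusted p from 0.0326 to 0.153). For RAG×WT it was 1.85 (SE 0.37, limma adjusted p = 0.00170), and against the 6 same-set controls, whose median was 6.37 TPM, 1.12 (SE 0.57, limma adjusted p = 0.9999). For GF×CR it was 1.29 (SE 0.40, limma adjusted p = 0.906), and 1.52 against same-set controls (limma adjusted p = 0.996). CR×GF and GF×CR embryos, both of the first set, differed by 0.80 with an unadjusted limma p of 0.0843.

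At the morula stage Dhcr7 passed in RAG×WT embryos under each of the 12 alternatives tried. It ran from 4.21 through a median of 16.3 to 31.1 TPM in 43 CR×CR morulae and from 7.43 through 36.5 to 57.6 in 28 RAG×WT morulae, so that the RAG×WT median exceeded the highest control. The log2 difference was 1.02 (SE 0.16, limma adjusted p = 7.1e-05), ranking 2 by p among 10477 genes. Against the 22 same-set controls, from 4.21 through 14.8 to 25.4 TPM, it was 1.15 (SE 0.20, limma adjusted p = 0.00751), and only 3 of 10330 genes, 0.029%, then passed. In GF×CR morulae Dhcr7 spread from 2.51 through 20.7 to 49.6 TPM (log2 difference 0.24, limma adjusted p = 0.448; same set 0.11).

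**Figure D5:**
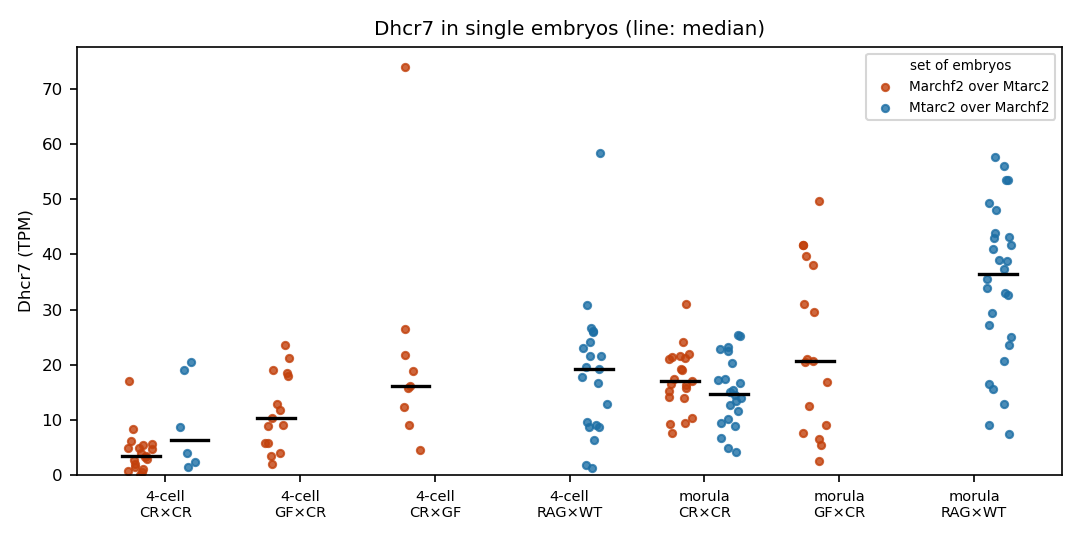
Dhcr7 in TPM in each single embryo (points) by cross and stage, with the median as a line, split into the set with Marchf2 above Mtarc2 (orange) and the reverse (blue). Within the blue set, RAG×WT morulae have a median of 36.5 TPM and CR×CR morulae of 14.8 TPM.

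Other members differed at the 4-cell stage only in part. Among the 21 to 26 members tested per comparison, 0 passed in GF×CR (0.0102% of 9780 genes passed) and 1, Dhcr7, in CR×GF (0.337% of 10670 passed, 0.178% as higher). Limma called 0 members between CR×GF and GF×CR, against 0.0101% of 9927 genes. In RAG×WT embryos 2 members passed, both higher, against 5.53% of 9313 genes, 4.31% as higher. At an unadjusted p under 0.05 the numbers were 4 for GF×CR, 4 for CR×GF, 2 for CR×GF against GF×CR and 5 for RAG×WT, where 5.19%, 11.4%, 6.44% and 21.8% of all genes reached it.

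Besides Dhcr7 the second member to pass in RAG×WT 4-cell embryos was Hmgcs1. It ran from 23.8 through 59.8 to 124 TPM in RAG×WT and from 5.34 through 34.3 to 111 TPM in CR×CR embryos (0.90, SE 0.24, limma adjusted p = 0.0208). Against the 6 same-set controls the Hmgcs1 difference shrank to 0.17 (limma adjusted p = 0.9999), and limma then called 0 of 11350 genes, with 3.42% at an unadjusted p under 0.05.

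In CR×GF embryos Sc5d lay on the other side from Dhcr7, the next enzyme in the route. It was at 0 in 5 of 9 CR×GF embryos and reached 13.2 TPM, against 0 through 8.21 to 20.4 in CR×CR embryos, of which 2 were at 0 (-2.30, SE 0.61, limma adjusted p = 0.0828, and -2.16 in the same set). Msmo1 ran from 3.20 through 30.8 to 56.3 TPM in CR×GF and 5.34 through 70.2 to 199.98 in CR×CR embryos (-1.34, SE 0.40, limma adjusted p = 0.140, and -1.16 in the same set). Both differences missed the threshold. Markers of the oocyte were at a median of 203 TPM in CR×GF and 92.9 in CR×CR embryos, and their part was not tested.

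Between the reciprocal crosses CR×GF and GF×CR, Acat2 ran from 47.0 through 56.2 to 78.9 TPM and from 3.57 through 39.4 to 74.0 TPM (0.76, SE 0.33, limma adjusted p = 0.749). Both crosses belong to the first set. Sc5d, from 0 through 7.17 to 17.02 TPM in GF×CR embryos, was lower in CR×GF by 1.69 on the log2 scale at the same adjusted p. GF×CR embryos overlapped CR×CR embryos for Stard4, from 0 through 0 to 3.70 TPM against 0 through 2.87 to 41.95 (-1.36, limma adjusted p = 0.954), and for Pmvk, from 2.36 through 16.3 to 32.5 against 0 through 7.19 to 38.9 (1.17, limma adjusted p = 0.954). Acat2 was at -0.57 in that comparison, and none of these 3 passed. In the same set Stard4 was at -1.16, Pmvk at 1.04 and Acat2 at -0.47.

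In GF×CR morulae Scap, Srebf2, Hmgcs1, Lbr and Abca1 passed as lower, amid a shift of many genes. Of 27 members tested, these 5 passed and all 5 were lower, in a comparison where 30.2% of 10893 genes passed and 27.3% were lower, with 8 members and 41.5% of all genes at an unadjusted p under 0.05, and the median of the members, -0.27, was near that of all genes, -0.32. GF×CR morulae also had fewer genes at 1 TPM or more, with a median of 9263 against 10191. With that number as a covariate no member passed and limma called 2 of 10893 genes, and with the replicate block no member passed and limma called 133.

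Scap, the SREBP escort, ran from 0.57 through 10.3 to 18.4 TPM in GF×CR and from 3.70 through 18.2 to 44.4 in CR×CR morulae (-1.19, SE 0.23, limma adjusted p = 0.00029). Its cargo Srebf2 ran from 0 through 3.88 to 30.9 against 0 through 8.72 to 31.1 TPM (-0.995, SE 0.38, limma adjusted p = 0.0419). Against same-set controls, from 3.70 through 16.3 to 30.8 TPM for Scap, both differences passed again, at -0.89 (limma adjusted p = 0.0364) for Scap and -1.28 (limma adjusted p = 0.0433) for Srebf2. Over 12 alternatives Scap kept its call in 10 and Srebf2 in 5, the Srebf2 difference running from -1.43 to -0.16 and its limma adjusted p from 0.0387 to 0.908.

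Among the enzymes Hmgcs1 ran from 1.64 through 27.8 to 70.8 TPM in GF×CR and from 13.3 through 49.3 to 92.8 in CR×CR morulae (-1.19, SE 0.26, limma adjusted p = 0.00073, and -1.26 in the same set, adjusted p = 0.0142). Lbr, which also anchors chromatin at the nuclear envelope, ran from 17.5 through 101 to 172 against 27.6 through 162 to 285 TPM (-0.92, SE 0.22, limma adjusted p = 0.00172, and -0.87 in the same set, adjusted p = 0.0192). The exporter Abca1 ran from 0 through 1.67 to 4.95 against 0.31 through 3.32 to 8.96 TPM (-0.76, SE 0.28, limma adjusted p = 0.0323), and the call was lost in the same set, at -0.45 (adjusted p = 0.285). All 5 genes overlapped widely between the crosses. In the same set 4 of the members passed, all lower, against 12.9% of 9883 genes.

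In RAG×WT morulae Dhcr7 rose while 2 isoprenoid enzymes fell, among 27 members tested and 2.68% of 10477 genes passing, 1.38% higher and 1.3% lower. Fdps, the farnesyl diphosphate synthase, ran from 148 through 335 to 656 TPM against 233 through 513 to 1180 in CR×CR morulae (-0.49, SE 0.14, limma adjusted p = 0.0315). Ggps1, which extends farnesyl to geranylgeranyl diphosphate, ran from 3.32 through 13.2 to 39.02 against 6.40 through 18.5 to 30.5 TPM (-0.49, SE 0.14, limma adjusted p = 0.0419). Neither passed in the same set, at -0.35 (adjusted p = 0.489) for Fdps and -0.52 (adjusted p = 0.416) for Ggps1. Sc5d ran from 3.58 through 15.7 to 36.8 TPM against 5.90 through 19.96 to 50.02 (-0.52, SE 0.17, limma adjusted p = 0.0690, and -0.62 in the same set, adjusted p = 0.388), and missed the threshold. At an unadjusted p under 0.05, 2 members were higher and 7 lower, against 10.6% and 8.72% of all genes (19.3% in either direction).

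A wider list of 46 genes of SREBP processing, LXR, sterol esters and transport, and isoprenoid use was read beside the members. None of them passed in glands, skin, ileum or liver, where 43 to 46 were tested. In GF×CR morulae 12 of 40 tested passed as lower and 1, Rabggtb, a prenyltransferase subunit, as higher, where 27.3% and 2.92% of all genes did, so that the listed genes were near the background. Against same-set controls 5 of 37 passed as lower and 1 as higher, and with the number of genes as a covariate 0 of 40 passed. Scarb1, the high-density lipoprotein receptor, had a median of 9.70 TPM against 16.04 (-1.42, limma adjusted p = 0.00038, and -1.37 in the same set, adjusted p = 0.0182). Srebf1, the fatty acid partner of Srebf2, had 13.5 against 32.96 (-1.17, limma adjusted p = 0.00098, and -0.99 in the same set, adjusted p = 0.0325). Mbtps1, the site-1 protease that cleaves both, had 12.7 against 23.6 (-0.96, limma adjusted p = 0.00103), and its call was lost in the same set, at -0.57 (adjusted p = 0.103).

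In RAG×WT embryos 1 of 36 listed genes tested passed at the 4-cell stage, as higher, and 3 of 38 in morulae, all higher, against 4.31% and 1.38% of all genes higher. Nr1h2, the LXR beta receptor, was among them at both stages, by 0.70 at the 4-cell stage (limma adjusted p = 0.00371) and by 0.36 in morulae (limma adjusted p = 0.0257). Against same-set controls no listed gene passed at either stage, and Nr1h2 was at 0.26 (limma adjusted p = 0.9999) and 0.09 (limma adjusted p = 0.786).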

How the data were processed

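RNA-seq of the 208 samples was used as deposited. Per the methods, the authors mapped gland, skin and ileum reads with Kallisto to Ensembl transcripts and worked in R 4.2; liver and embryo reads were quantified with RSEM, the embryos on mm10, and other versions, builds and the strand setting are not given in the sources used here. The gland, skin, ileum and liver tables hold CPM values that the authors had scaled to a common library total. For liver this rests on the values: the methods name TPM, but 93.7% to 95.4% of values up to 20 steps lay within 0.02 of a whole multiple of 1 step per library, whatever the gene, as scaled whole reads would. The embryo tables, deposited under the name CPM, hold TPM values per the methods and the sums. Whole reads could not be recovered from them, so that no count model was run. The commonest low CPM step gave estimated depths, in M reads, of 3.74 to 18.3 for glands, 11.3 to 24.7 for skin, 2.59 to 14.2 for ileum and 3.41 to 7.26 for liver. In glands, skin and ileum only 15.9% to 73.1% of such low values lay near a whole multiple, so that their depths are rough. TPM keeps no depth.

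Each of 14 comparisons was made within 1 table on log2(value + 0.5), a scale that understates changes of low genes, over genes that reached 1 in a number of samples no smaller than the smaller group. limma 3.58.1 (R 4.3.3) with an intensity trend was used, and Benjamini-Hochberg adjusted p under 0.05 was called. Whether samples with the same replicate number deviate together was checked. In the ileum all 3 pairs correlated at 0.212 to 0.273, and there the block left 0 members called and is given beside the result. Elsewhere the pairs above 0.1 ran from 0 of 3 in liver to 10 of 28 in RAG×WT morulae. The highest correlation was 0.476, in GF×CR 4-cell embryos. The labels do not say whether equal numbers pair samples, and outside the ileum the block served as an alternative only. Alternatives changed the pseudocount, the filter, scaling and sample weights, added a Y-linked, gene-number or replicate term, used same-set controls or left out single samples. Scripts were tested on simulated data. Members, role groups, the list of 46 further genes and the markers were chosen with earlier results of these data known. Values were named for members called in a comparison or, where none was, for up to 4 of smallest unadjusted p under 0.05; Sc5d, Dhcr7 and others given across tissues or beside these were chosen after their values were seen. Acat2 and Idi1 have near-identical copies, and their values are uncertain. Skin controls occur in 2 tables per generation, and comparisons that share them are not independent.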

Additional observations from a re-analysis of the deposited data

Results flagged for a closer look

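In 13 checks, each of 1 named member in 1 group of 4 to 10 samples, 1 sample lay far from the rest. For normally distributed values chance alone marks about 1 check in 20. The checks reused the same samples and were made on unlogged values, so that this rate is a rough guide. Dhcr7 in CR×GF 4-cell embryo 8 was at 73.9 TPM, with the next embryo at 26.5 TPM, the median of the 9 embryos at 16.1 and the lowest at 4.61. The gap to the next embryo was 0.684 of the group's whole range, against a critical value of 0.493. Its cause was not tested.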

How the results depend on the processing

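Of 211 recomputed counts of members called, 176 stayed within 1.5 times the main count, and no named member reversed its direction in 447 results: 392 kept their side of the threshold, 49 lost a call and 6 gained one. In F0 glands (main count 0) array weights gave 3, and leaving out single glands 0 to 3. In F1 glands (main 1) the count was 0 with no filter and 0 with the Y-linked covariate, and leaving out single glands gave 0 to 1. Array weights gave 1 in F1 GF×GF skin, 1 in F1 GF×CR skin and 1 in ileum, from 0 each. For CR×GF 4-cell embryos (main 1) the count was 0 with a pseudocount of 0.1, 0 with no filter, 0 with the Y-linked covariate, 0 with the replicate block and 0 to 1 without single CR×GF embryos, alternatives chosen after seeing the data, of which those without embryo 1 or 9 called 1 member lower and not Dhcr7. It was 3 with quantile normalization (1 higher, 2 lower), 2 with array weights (both lower, Sc5d and Msmo1, with Dhcr7 lost) and 2 with the number of genes as a covariate (1 higher, 1 lower). For RAG×WT 4-cell embryos (main 2) it was 1 with quantile normalization, 0 with same-set controls and 1 with all groups of the stage in 1 fit. For GF×CR morulae (main 5) it was 3 with no filter, 3 with median ratio scaling, 0 with the replicate block and 0 with the number of genes as a covariate. For RAG×WT morulae (main 3) it was 1 with no filter, 5 with quantile normalization (1 higher, 4 lower), 7 with array weights (1 higher, 6 lower), 1 with the Y-linked covariate, 7 with the replicate block (1 higher, 6 lower) and 1 with same-set controls. Except where stated above, the cause was not tested and the share of all genes is not given. The replicate block, for which the labels do not say whether equal numbers pair samples, changed no other count of members called by over 1.5 times. The Y-linked covariate could not be fitted in liver, where both genes were at 0, and no embryo fell under 50% of its group's median gene number, so that leaving out such embryos gave no value. With 2 CR glands in the F1, leaving out 1 assumes that the lone sample varies like the rest. Low values limit Sc5d in F0 CR glands (median 3.47 CPM), Idi1 in skin (medians of 2.16 to 3.77 CPM), and Hsd17b7, Nsdhl and Tm7sf2 in 4-cell embryos (medians of 0 to 2.86 TPM).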
